A study of Mus musculus with 40 samples.

Results

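The comparison described here sets the kidneys of mice given 0.03 or 0.1 µg/kg TCDD, pooled as 1 treated group, against the kidneys of mice given vehicle. It rests on 15 of the 40 libraries of the series, chosen by the dose in their labels: 10 treated libraries (5 at 0.03 µg/kg and 5 at 0.1 µg/kg) and 5 vehicle libraries. All 40 animals were male C57BL/6 mice that received sesame oil alone or with TCDD (2,3,7,8-tetrachlorodibenzodioxin) by oral gavage once every 4 days, 7 times over 28 days, from 30 to 58 days of age. RNA of the right kidney was sequenced with paired reads of 150 bases, and the design gives 5 mice per dose. No genetic alteration is named for any group, and the vehicle mice differ from the treated mice in the labels by the dose only. The pooling asks whether kidney transcripts differ from vehicle at the lowest 2 doses of the series, and the dose step from 0.03 to 0.1 µg/kg can be read within the treated group.

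TCDD, a dioxin that the body clears slowly, acts through the aryl hydrocarbon receptor (AhR). The ligand-bound receptor moves to the nucleus, pairs with ARNT and binds DNA at short elements with the core GCGTG, and this raises the transcription of Cyp1a1, a cytochrome P450 that is the most widely used readout of the receptor, and of other enzymes of foreign-compound metabolism. Ahrr and Tiparp, which are themselves targets, restrain the receptor. In the kidney, most RNA comes from proximal tubules, whose S1-S2 segments lie in the cortex and whose S3 segment lies in the outer stripe of the outer medulla. The thick ascending limb spans the outer medulla and cortex.

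To show the element in these genes, the 300 bases from 250 before to 50 after the start of Cyp1a1 and of the genes with the 2 lowest p-values of the comparison, Crlf3 and Pfkp, are given from RefSeq on GRCm38.p6, 5′ to 3′ on the gene's strand. Capitals mark GCGTG or its reverse complement CACGC. Cyp1a1 lies on the plus strand (chr9:57697363-57697662), Crlf3 on the minus strand (chr11:80080942-80081241) and Pfkp on the minus strand (chr13:6648722-6649021).
Cyp1a1: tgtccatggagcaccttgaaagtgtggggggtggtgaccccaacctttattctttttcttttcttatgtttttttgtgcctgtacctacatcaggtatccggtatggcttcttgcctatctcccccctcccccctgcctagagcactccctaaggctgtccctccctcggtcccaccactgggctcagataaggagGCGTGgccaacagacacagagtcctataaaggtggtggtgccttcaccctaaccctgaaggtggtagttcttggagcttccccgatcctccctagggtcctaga
Crlf3: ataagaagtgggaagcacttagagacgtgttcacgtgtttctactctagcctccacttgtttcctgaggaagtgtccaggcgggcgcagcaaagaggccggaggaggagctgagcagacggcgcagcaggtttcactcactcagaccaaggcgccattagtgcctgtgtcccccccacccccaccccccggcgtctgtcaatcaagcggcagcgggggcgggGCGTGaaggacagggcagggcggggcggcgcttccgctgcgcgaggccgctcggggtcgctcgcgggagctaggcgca
Pfkp: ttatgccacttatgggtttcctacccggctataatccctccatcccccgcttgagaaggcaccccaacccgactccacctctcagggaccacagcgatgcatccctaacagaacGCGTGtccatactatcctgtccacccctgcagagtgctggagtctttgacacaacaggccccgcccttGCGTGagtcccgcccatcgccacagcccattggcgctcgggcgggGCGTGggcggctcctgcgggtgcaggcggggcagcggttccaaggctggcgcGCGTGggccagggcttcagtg
Cyp1a1 holds 1 match in this window, Crlf3 holds 1 and Pfkp holds 4. Of 32851 windows of this length in the table, 32.4% hold at least 1 match and 11.1% hold 2 or more, so a match describes the letters and is not evidence of binding. No data on receptor binding were analysed here.

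Gene counts summed to 15365705 to 25575317 per library, mitochondrially encoded genes took 7.68 to 9.65% of them, and 20298 to 22075 genes had a count. For 8 such technical measures the lowest two-sided exact permutation p between the treated and vehicle libraries was 0.1275 (the share of ambiguous reads, adjusted p = 0.6647), and this design allows no p under 0.000333. Levels below are CPM (gene counts scaled to a common library total), fold changes are on the log2 scale as treated minus vehicle, and a gene counts as called when its Benjamini-Hochberg adjusted p in edgeR's quasi-likelihood test is under 0.05. With 1 library per mouse, the spread between libraries holds animal and technical variation together. In bulk kidney RNA, fewer cells of a type and less RNA per cell cannot be told apart.

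Besides vehicle library 4, described last, 3 kinds of library stood apart before any comparison. Vehicle libraries 1 and 2 lay at -48.9 and -44.2 on the first principal component of the 15 libraries (15.3% of the variance), while the other 13 lay between 0.324 and 11.5. In these 2 libraries 85 genes were at least 1 log2 unit below all 13 others, and 0 genes were that far above. Cyp7b1, an oxysterol 7-alpha-hydroxylase that is strongly expressed in male mouse proximal tubule, measured 26.2 and 31.2 CPM in vehicle libraries 1 and 2, against 251, 285 and 227 in vehicle libraries 3 to 5. It measured 371, 278, 268, 274 and 307 at 0.03 µg/kg and 272, 281, 226, 248 and 302 at 0.1 µg/kg. The 3 remaining vehicle libraries thus lay within the range of the treated ones for this gene. The steroid dehydrogenase Akr1c18 (3.09 and 2.97, against 21.9 to 62.6 in the other 13), the organic anion transporter Slc22a7 (31.6 and 45.6, against 212 to 371) and the brush border protease Mep1b (40.3 and 51.7, against 242 to 327) had the same pattern.

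All 5 markers of the S3 segment that were listed, Cyp7b1, Slc7a13, Atp11a, Slc22a13 and Slc22a7, were lower in vehicle libraries 1 and 2 than in each of the 13 others, as were 5 of the 13 androgen-responsive kidney genes. Both counts take a gap of any size, unlike the 85 genes above. The share of all genes with such a gap was not counted, so whether these counts are unusual cannot be told. The 85 genes of 15855 with a gap of at least 1 log2 unit include Cyp7b1, Slc22a13 and Slc22a7 of the S3 markers. Of the androgen-responsive genes they include only Acsm3. Summed over the list, the S3 markers measured 1430 and 1610 CPM in those 2 libraries, 2830 to 3310 in the other vehicle libraries and 2890 to 3480 in the treated ones. The S1-S2 markers went the other way, at 14300 and 14800 CPM against 11000 to 11800 and 10700 to 12700. Thick ascending limb markers summed to 2200 and 2510 CPM in those 2 libraries, 3320 to 4800 in vehicle libraries 3 to 5 and 4010 to 5270 in the treated libraries. Among the 25 libraries of the higher doses, only 30 µg/kg replicate 3 was as low as vehicle libraries 1 and 2 in Cyp7b1 (11.1 CPM in the scaling over 40 libraries), Slc22a7 (22.1) and Mep1b (20.5), and 30 µg/kg replicates 2 and 3 were as low in Akr1c18 (2.32 and 2.85). Values without vehicle libraries 1 and 2 are given below beside many of the results that they move.

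**Figure D1:**
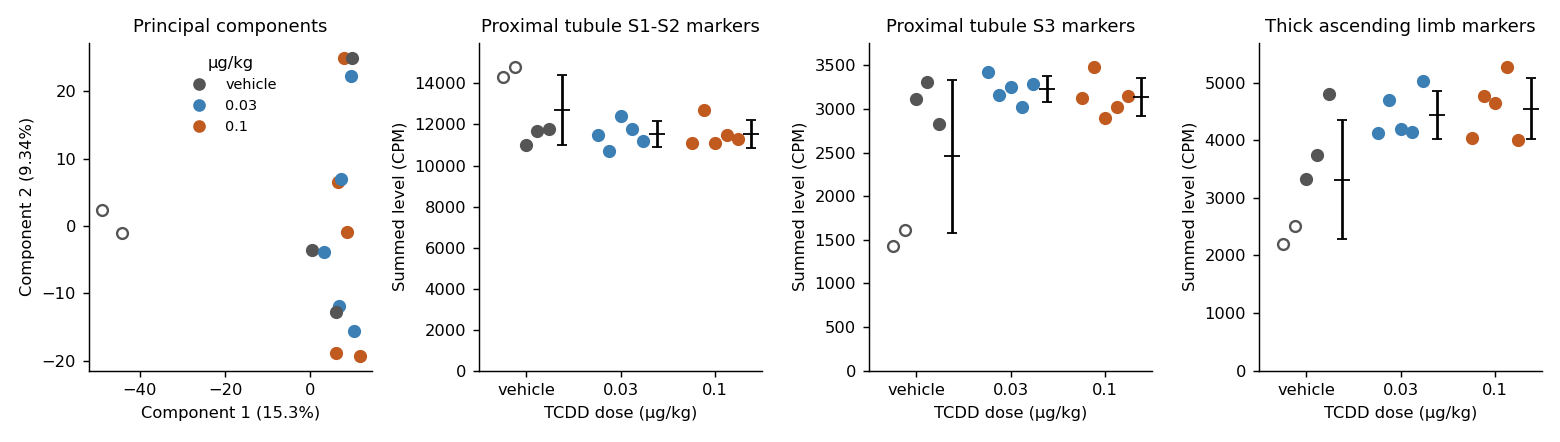
The 15 libraries on the first 2 principal components of log2 CPM (left, share of variance in percent) and the summed CPM of the markers of 3 nephron segments by dose in µg/kg. Each circle is 1 library, open circles are vehicle libraries 1 and 2, and bars give the mean and SD of 5 libraries. The 2 open circles lie apart from the other 13 on component 1, above them in S1-S2 markers and below them in S3 and thick ascending limb markers.

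The second kind is 0.03 µg/kg replicate 1, which held transcripts of the adrenal gland. The summed level of 9 adrenal markers was 596 CPM there and 3.93 to 6.05 in the other 14 libraries. Star, which carries cholesterol into mitochondria for steroid synthesis, measured 176 CPM in that library, 4.07 to 5.5 in the other 4 at 0.03 µg/kg, 3.87 to 5.5 at 0.1 µg/kg and 3.77 to 5.28 in vehicle. The steroidogenic P450s Cyp11a1 and Cyp21a1 reached 149 and 148 CPM there (3137 and 3136 counts) and had at most 3 counts in any vehicle library. The third is 0.03 µg/kg replicate 4, with high levels of immediate early genes, which respond within minutes to stimuli and include genes of transcription factors. Egr1 measured 168 CPM there and 35 in 0.03 µg/kg replicate 5, while the other 13 libraries lay between 2.21 and 6.35. Fos measured 34.9 CPM in replicate 4 and 0.0633 to 1.78 in the rest, and Jun measured 115 against 18.4 to 39.8. Vehicle library 4 lay at -43 on the third principal component (8.36% of the variance), where all other libraries lay between -4.06 and 24.8. It had the fewest genes with a count (20298) and is kept in the fits without vehicle libraries 1 and 2.

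**Figure D2:**
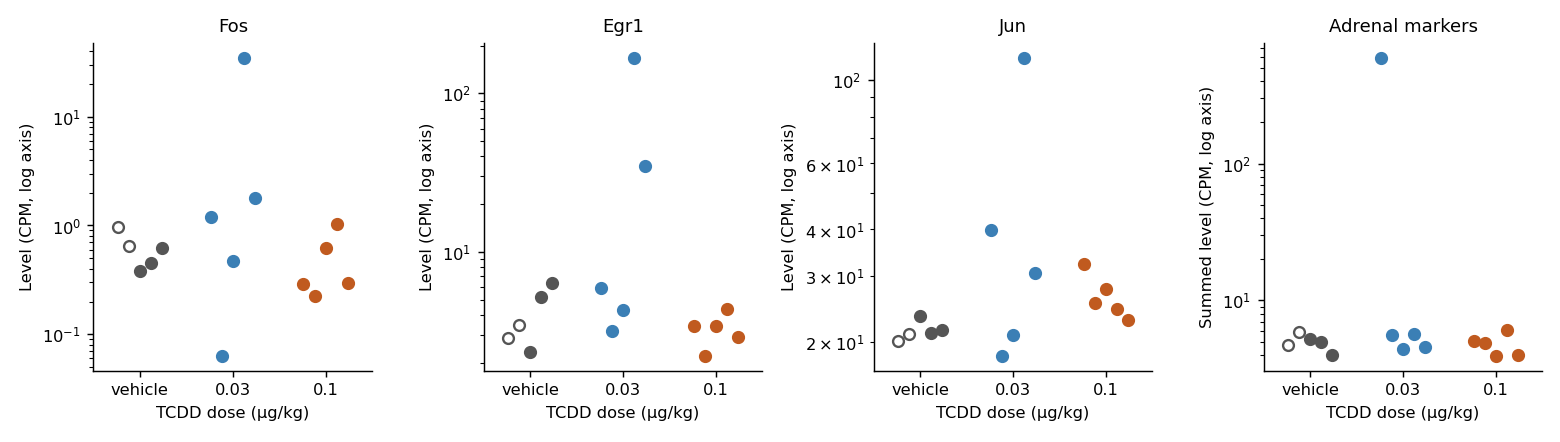
Levels of Fos, Egr1 and Jun and the summed level of 9 adrenal markers, in CPM on log axes, by TCDD dose in µg/kg. Each circle is 1 library and open circles are vehicle libraries 1 and 2. The highest Fos, Egr1 and Jun values (34.9, 168 and 115 CPM) all belong to 0.03 µg/kg replicate 4, and the adrenal value of 596 CPM belongs to 0.03 µg/kg replicate 1.

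Across the genome, no gene was called between the pooled doses and vehicle. Of 15855 genes tested, 0 were called (0%), and the lowest adjusted p in edgeR was 0.142. At an unadjusted p under 0.05 there were 1433 genes (9.04%, where 793 would be at 5%), 743 of them higher (4.69%) and 690 lower (4.35%) in the treated kidneys. The median log2 fold change over all genes was 0.003, the median standard error was 0.11 and 90 genes differed by at least 1 log2 unit in either direction. For 11118 genes (70.12%) the 95% interval of the fold change lay within 1.5-fold in both directions, and for 13596 (85.75%) within 2-fold.

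The count at an unadjusted p under 0.05 was lower without vehicle libraries 1 and 2, in a fit that also has fewer vehicle libraries. Without them, the fit on the same 15855 genes called 0 genes and had 488 at an unadjusted p under 0.05 (3.08%), with a lowest adjusted p of 0.999 in edgeR. Other settings made a few calls. DESeq2 called 12 genes, edgeR without a filter on low counts called 8 of 30875, and edgeR without vehicle library 5 called 9. Without vehicle library 4 it called 1. Each dose alone against the same 5 vehicle libraries called 0 genes, with 1089 genes (6.87%) at an unadjusted p under 0.05 for 0.03 µg/kg and 1137 (7.17%) for 0.1 µg/kg. These comparisons share their vehicle libraries.

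Cyp1a1, the central target of the receptor, was at a few CPM in all 15 libraries. Vehicle libraries 1 to 5 measured 1.14, 3.98, 1.58, 3.39 and 1.69 CPM. The libraries at 0.03 µg/kg measured 2.01, 1.71, 1.74, 3.99 and 1.27 CPM, and those at 0.1 µg/kg measured 6.61, 5.18, 6.4, 3.91 and 5.21. The 0.03 µg/kg libraries spanned the same range as vehicle, 4 of the 5 at 0.1 µg/kg were above every vehicle library, and the fifth lay just below the highest vehicle value. Means were 2.35 ± 1.25 (SD, n = 5) in vehicle, 2.14 ± 1.07 (SD, n = 5) at 0.03 µg/kg and 5.46 ± 1.09 (SD, n = 5) at 0.1 µg/kg.

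Pooled, Cyp1a1 differed from vehicle by 0.69 ± 0.43 (SE, 95% interval -0.22 to 1.60), which was not called (adjusted p = 0.657 in edgeR). The exact permutation test on log2 CPM gave p = 0.2005 for the pooled doses (two-sided), with 5 of the 10 treated libraries above all vehicle libraries. Between the doses, the 0.1 µg/kg libraries were 1.39 log2 units above those at 0.03 µg/kg, with an exact permutation p of 0.01587, where 5 libraries against 5 allow no p under 0.00794. Against vehicle, 0.1 µg/kg gave a difference of 1.31 (exact permutation p = 0.01587) and 0.03 µg/kg a difference of -0.09 (exact permutation p = 0.8889). In the test over all genes, the step from 0.03 to 0.1 µg/kg was 1.34 ± 0.32 for Cyp1a1 and was not called (unadjusted p = 0.000341, adjusted p = 1.00 in edgeR). At 0.3 µg/kg, outside this comparison, the mean level was 24.7 CPM in the scaling over 40 libraries, above a mean of 5.51 at 0.1 µg/kg in the same scaling.

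Of the 18 genes listed as the AhR battery, 15 passed the filter, 0 were called and 2 reached an unadjusted p under 0.05, both higher (13.3% of the list, against 9.04% of all genes). Their median log2 fold change was 0.05, with 8 above 0 (53.33%, against 50.87% of all genes). Without vehicle libraries 1 and 2, 0 of the 15 reached it (3.08% of all genes). Nqo1, a quinone reductase under both AhR and NRF2, measured 38.6, 35.6, 54, 52.9 and 57.2 CPM in vehicle libraries 1 to 5 and 48.4 to 60.8 (median 55.3) in the treated ones. Its difference of 0.20 ± 0.09 (adjusted p = 0.536 in edgeR) became 0.00 ± 0.07 without vehicle libraries 1 and 2, the 2 lowest values. Ugt1a6b, a glucuronosyltransferase, had a difference of 0.92 ± 0.35 (adjusted p = 0.462 in edgeR) at levels of 0.343 to 1.3 CPM in vehicle and 0.585 to 2.35 in treated kidneys. It shares 60.6% of its exonic bases with neighbouring Ugt1a genes, so its value is uncertain. Without those 2 libraries it differed by 0.70 ± 0.41.

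The other members of the battery did not reach an unadjusted p under 0.05. The P450 Cyp1b1 measured 19.7 to 25.4 CPM in vehicle and 17.9 to 28 in treated kidneys (0.05 ± 0.10, 95% interval -0.16 to 0.25). The feedback repressor Tiparp differed by -0.08 ± 0.08 and Ahrr, near 1 CPM, by -0.16 ± 0.38, and without vehicle libraries 1 and 2 by 0.04 ± 0.09 and -0.56 ± 0.41. The aldehyde dehydrogenase Aldh3a1 was also near 1 CPM and differed by 0.33 ± 0.36, or 0.60 ± 0.46 without those libraries. Cyp1a2, the neighbouring P450, had 0 to 6 counts in vehicle and 0 to 2 in treated libraries and did not pass the filter, nor did Ugt1a9 and Gsta1. The receptor Ahr differed by -0.21 ± 0.13 (-0.09 ± 0.15 without vehicle libraries 1 and 2) and its partner Arnt by -0.02 ± 0.08 (0.07 ± 0.10). Of 13 genes of the receptor and its partners 0 reached an unadjusted p under 0.05, and for 12 the interval lay within 1.5-fold (70.12% of all genes).

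Crlf3 and Pfkp had the lowest p-values of the comparison. Crlf3, a cytokine receptor-like protein, measured 9.38, 10.4, 11.7, 11.1 and 10.3 CPM in vehicle libraries 1 to 5. It measured 14.1, 17.9, 17.1, 14 and 16 CPM at 0.03 µg/kg and 15.8, 13.6, 16.5, 12.7 and 15 at 0.1 µg/kg, so that every treated library lay above every vehicle library. The difference was 0.53 ± 0.10 (95% interval 0.32 to 0.73, adjusted p = 0.142 in edgeR), and the value without vehicle libraries 1 and 2 was 0.46 ± 0.12. DESeq2 called it (adjusted p = 0.00357). In the scaling over 40 libraries the mean level was 10.7 CPM in vehicle. It lay between 14 and 16 CPM in each of the 7 dose groups, with no order by dose. The 25 higher-dose libraries lay from 9.56 to 18.3 CPM, against a highest vehicle value of 11.9, so at higher doses Crlf3 overlapped vehicle. Of these 25, 1 lay below vehicle library 2 (10.4 CPM), and the number below 11.9 CPM was not counted.

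Pfkp, the platelet form of phosphofructokinase and a rate-setting enzyme of glycolysis, measured 40.2, 42.1, 57, 57.1 and 63.6 CPM in vehicle. The treated libraries lay from 65.3 to 81.3 CPM (median 71.6), all above the highest vehicle library. Its difference of 0.46 ± 0.09 (adjusted p = 0.142 in edgeR) was 0.27 ± 0.07 without vehicle libraries 1 and 2, whose levels were the lowest of all 15. DESeq2 called it (adjusted p = 0.00502), as did edgeR without vehicle library 5 (adjusted p = 0.0118). In the scaling over 40 libraries the 25 higher-dose libraries lay from 42.5 to 98.6 CPM with a median of 63.8, against a highest vehicle value of 64.1, so at higher doses Pfkp overlapped vehicle.

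The other genes leading the higher side were Dglucy, a D-glutamate cyclase of mitochondria (0.25 ± 0.05), Fam222a (0.60 ± 0.13), Ptdss2, a phosphatidylserine synthase (0.25 ± 0.06), and at low levels the axonemal dynein Dnah2 (1.38 ± 0.32), the muscle kinase adaptor Dok7 (2.02 ± 0.48) and the unnamed gene ENSMUSG00002076581 (2.60 ± 0.58). All had adjusted p-values of 0.21 to 0.294 in edgeR. Fam222a measured 6.23, 6.44, 7.63, 6.65 and 6.69 CPM in vehicle and 7.07 to 12.6 (median 10.3) in the treated kidneys, of which 9 of 10 lay above every vehicle library. Its value without vehicle libraries 1 and 2 was 0.55 ± 0.16. Dnah2 measured 0.391 to 1.11 CPM in vehicle and 1.17 to 4.24 in treated kidneys, and Dok7 0.0503 to 0.618 and 0.393 to 2.08, so these larger fold changes rest on few counts. In the fit without vehicle libraries 1 and 2, Dglucy differed by 0.17 ± 0.06, Ptdss2 by 0.18 ± 0.07, Dnah2 by 1.54 ± 0.40, Dok7 by 1.46 ± 0.49 and ENSMUSG00002076581 by 2.25 ± 0.67.

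**Figure D3:**
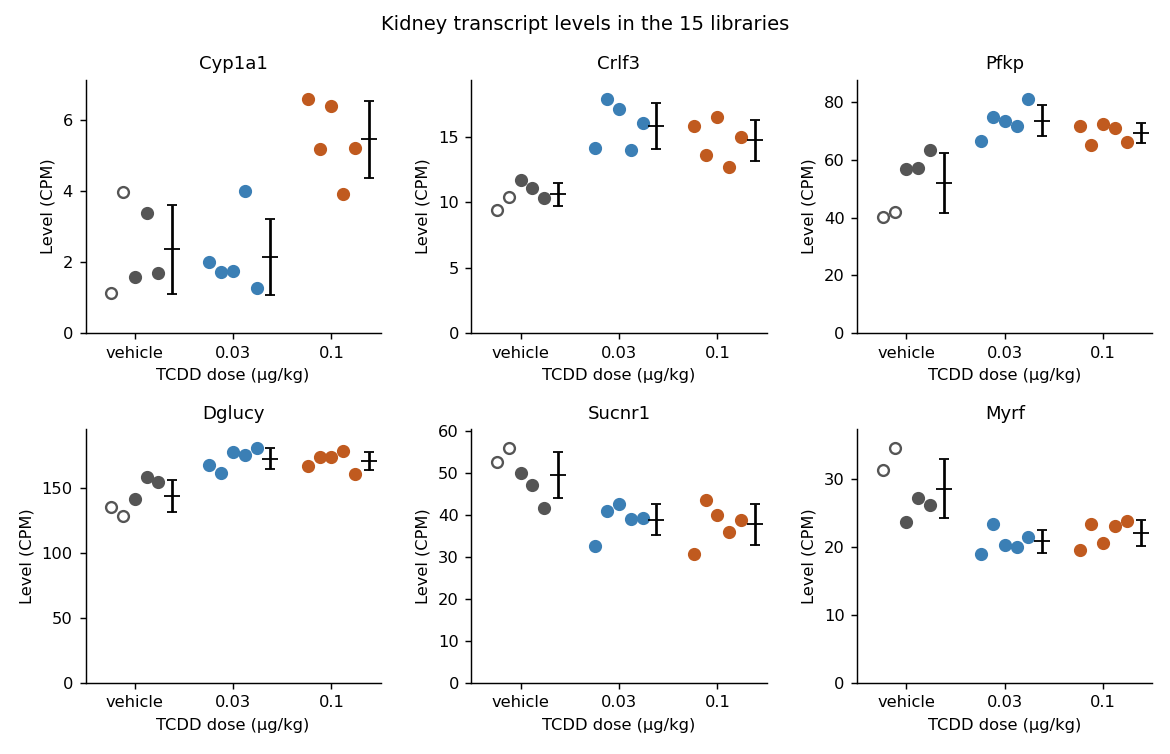
Levels of Cyp1a1 and 5 genes of lowest p in CPM by TCDD dose in µg/kg. Each circle is 1 library, open circles are vehicle libraries 1 and 2, and bars give the mean and SD of 5 libraries. For Crlf3 and Pfkp all 10 treated libraries lie above the 5 vehicle libraries, whereas Cyp1a1 is higher at 0.1 µg/kg than at 0.03 µg/kg.

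On the lower side, Sucnr1, the succinate receptor, measured 52.7, 55.9, 49.9, 47.2 and 41.7 CPM in vehicle. It measured 32.7, 40.9, 42.7, 39 and 39.2 CPM at 0.03 µg/kg and 30.6, 43.6, 40, 35.9 and 38.9 at 0.1 µg/kg, so 2 treated libraries overlapped the lowest vehicle value. Its difference was -0.37 ± 0.08 (adjusted p = 0.21 in edgeR), and -0.27 ± 0.09 without vehicle libraries 1 and 2.

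The transcription factor Myrf differed by -0.42 ± 0.09 (adjusted p = 0.21 in edgeR), from 28.6 ± 4.32 CPM (SD, n = 5) in vehicle to 21.4 ± 1.84 (SD, n = 10), and by -0.26 ± 0.10 without vehicle libraries 1 and 2, which held its 2 highest values. Zfp507, a zinc finger protein, measured 31 to 35 CPM in vehicle and 21.7 to 29.6 in treated libraries, with no overlap (-0.31 ± 0.07), and without those 2 libraries differed by -0.27 ± 0.09. Exons of 2 other annotated genes cover 28.3% of its exonic bases. Aftph, a trafficking protein (-0.23 ± 0.05), and Psmd5, an assembly chaperone of the proteasome (-0.26 ± 0.06), also did not overlap and kept values of -0.21 ± 0.06 and -0.27 ± 0.08. The carboxylesterase Ces1e (-0.29 ± 0.07) was at -0.14 ± 0.07 when the 2 libraries were left out.

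Counted over all genes, the treated and vehicle libraries did not overlap for 18 of 15855 genes (0.114%), 12 higher (0.0757%) and 6 lower (0.0378%) in treated kidneys. Besides those above, the widest gaps belonged to the sarcomere protein Ttn (1.32 to 1.8 CPM in vehicle, 1.9 to 3.24 treated, 0.64 ± 0.22) and the huntingtin-associated Hap1 (2.21 to 3.26 and 3.4 to 6.04, 0.65 ± 0.19) on the higher side. On the lower side they were the palmitoyltransferase Zdhhc15 (2.05 to 2.67 and 0.674 to 1.83, -0.75 ± 0.24) and the proteoglycan Spock3 (1.86 to 2.12 and 0.711 to 1.8, -0.82 ± 0.26). Adjusted p-values of these 4 lay between 0.404 and 0.436 in edgeR. If the libraries were exchangeable, a given gene would separate fully in a given direction with a probability of 0.000333. The share of genes separating on the lower side (0.0378%) lay near that value. Genes are not independent of each other, and these shares were not tested.

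DESeq2's 12 calls included Crlf3, Pfkp, Dglucy, Fam222a, Dnah2, Dok7 and ENSMUSG00002076581 on the higher side and Sucnr1, Myrf, Zfp507 and Aftph on the lower side, with adjusted p from 0.00357 to 0.0325 in DESeq2.

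**Figure D4:**
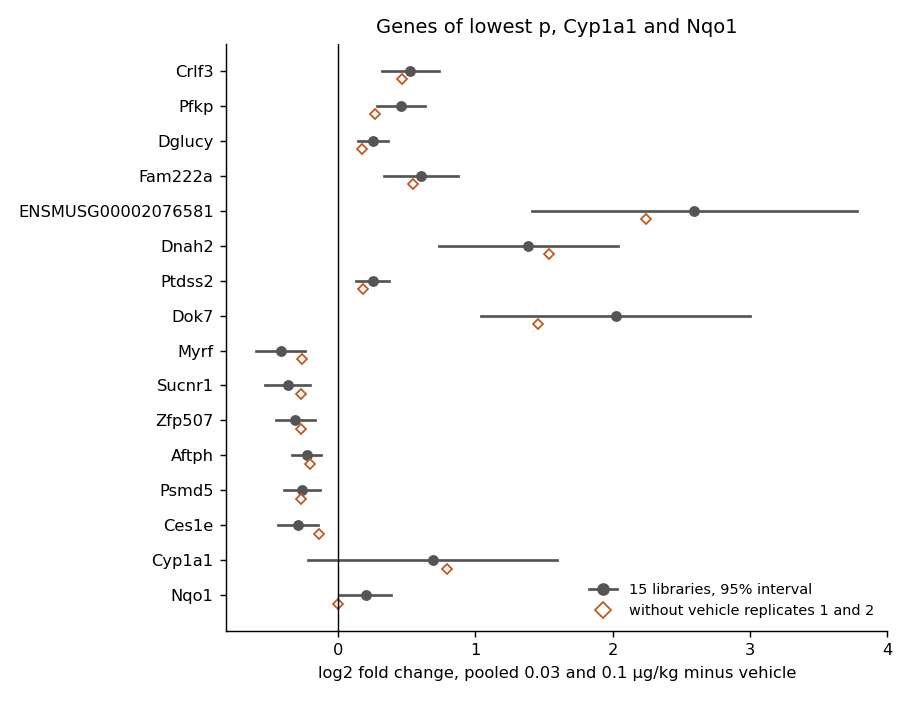
Log2 fold changes of the pooled doses against vehicle for genes of lowest p in each direction, Cyp1a1 and Nqo1. Filled circles with 95% intervals are the fit on 15 libraries and open diamonds the value without vehicle libraries 1 and 2. For Crlf3 the diamond (0.46) lies close to the circle (0.53), and for Nqo1 it lies at 0.00 against 0.20.

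The 2 doses were then compared with each other. Of 15855 genes, 0 were called between 0.1 and 0.03 µg/kg (0%), with a lowest adjusted p of 1 in edgeR, and 442 (2.79%) had an unadjusted p under 0.05, 224 higher (1.41%) and 218 lower (1.37%) at 0.1 µg/kg. DESeq2 called 0 genes with 494 at an unadjusted p under 0.05. Without a filter on low counts edgeR called 7 of 30875 genes, among them Cyp1a1 (adjusted p = 0.00438). Besides Cyp1a1, the genes of lowest p that were higher at 0.1 µg/kg were the ribosome biogenesis factor Tsr3 (0.42 ± 0.11), Gm9968 (2.02 ± 0.53, at no more than 1.29 CPM in any library) and the sialyltransferase St3gal2 (0.32 ± 0.09).

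Lower at 0.1 µg/kg were Rgs2, a regulator of G protein signalling (-0.51 ± 0.12), the transcription factors Tbx3 (-0.59 ± 0.14) and Tbpl1 (-0.42 ± 0.11) and the ephrin receptor Epha2 (-0.54 ± 0.14). Rgs2 measured 16.8, 17.1, 17.3, 16.3 and 16.6 CPM at 0.03 µg/kg and 10.4, 10.5, 14.5, 13 and 10.5 at 0.1 µg/kg, with vehicle at 13, 14.7, 10.7, 15.2 and 14.1. The doses did not overlap, and vehicle lay across the range of 0.1 µg/kg and below 0.03 µg/kg. Tsr3 measured 10.1 to 12 CPM at 0.03 µg/kg, 13.5 to 16.8 at 0.1 µg/kg and 13.3 to 14.6 in vehicle. In both genes the 2 doses therefore lay on different sides of the vehicle mean, and the pooled differences were near 0 (0.08 ± 0.13 for Rgs2 and -0.09 ± 0.11 for Tsr3).

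None of the lists for pathways of the kidney and of TCDD response had a called member (0 of 15855 genes were called), and their counts at an unadjusted p under 0.05 are read against 9.04% of all genes. Counts of members above 0 are read against 50.87% of all genes. Members of such lists are not independent of each other, and the lists were chosen with earlier results of these data known.

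Targets of NRF2, the regulator of antioxidant defence, had 5 of 16 tested members at an unadjusted p under 0.05, all higher in treated kidneys, with a list median of 0.02. They were both subunits of glutamate-cysteine ligase, Gclc (0.37 ± 0.14) and Gclm (0.23 ± 0.08), the glutathione transferase Gstm1 (0.24 ± 0.11), the pentose phosphate enzyme G6pdx (0.16 ± 0.07) and Nqo1. Gclc measured 182 and 192 CPM in vehicle libraries 1 and 2, 291, 276 and 283 in vehicle libraries 3 to 5 and 245 to 383 in treated libraries. Without vehicle libraries 1 and 2 the count was 0 of 16, with Gclc at 0.16 ± 0.12, Gclm at 0.03 ± 0.05, Gstm1 at 0.02 ± 0.07 and G6pdx at 0.11 ± 0.08.

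PPARA targets of fatty acid oxidation had 5 of 21 members at an unadjusted p under 0.05, all higher, with a median of 0.04. Acadm, the medium-chain acyl-CoA dehydrogenase, measured 599 and 598 CPM in vehicle libraries 1 and 2 against 804 to 1010 in the other 3 and 812 to 1090 in treated libraries (0.34 ± 0.11, and 0.14 ± 0.08 without those 2). Slc25a20, the carnitine-acylcarnitine carrier, kept its value when the 2 libraries were left out. It measured 48.5, 48, 45.4, 50 and 44 CPM in vehicle and 49.2 to 63.9 in treated kidneys, of which 9 of 10 were above every vehicle library, and its difference was 0.23 ± 0.07 with all libraries (adjusted p = 0.404 in edgeR) and 0.26 ± 0.08 without the 2. The count for the list was then 2 of 21, beside 3.08% of all genes.

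Cholesterol synthesis had 4 of 20 members lower and 1 higher at an unadjusted p under 0.05, and 0 of 20 without vehicle libraries 1 and 2. The higher one was the demethylase Cyp51 (0.44 ± 0.18), at 151 and 126 CPM in those 2 libraries, 276 to 290 in the other vehicle libraries and 263 to 325 in treated kidneys. The lower ones included the regulator Srebf2 (-0.15 ± 0.07) and the desaturase Sc5d (-0.17 ± 0.07). Without the 2 libraries Cyp51 was at 0.11 ± 0.07, Srebf2 at -0.01 ± 0.06 and Sc5d at -0.08 ± 0.08. Of 13 androgen-responsive kidney genes, 2 were lower at an unadjusted p under 0.05, among them the epoxygenase Cyp2j13 (-0.19 ± 0.08), and the list median was -0.05. Without vehicle libraries 1 and 2, 1 of 13 was lower, Cyp2j13 was at -0.17 ± 0.10 and the list median was -0.10. The androgen-regulated protein Kap measured 9960 and 9630 CPM in vehicle libraries 1 and 2, 14800 to 22200 in the other 3 and 12700 to 21100 in treated libraries. It differed by 0.18 ± 0.19, and by -0.12 ± 0.15 without those 2 libraries.

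Immune lists held few members at an unadjusted p under 0.05. Of 19 genes of the type I interferon response, 1 reached an unadjusted p under 0.05, the receptor transporter Rtp4 (0.51 ± 0.19, and 0.60 ± 0.23 without vehicle libraries 1 and 2), with 2.08 to 4.01 CPM in vehicle and 3.45 to 5.85 in treated kidneys. Of 13 interferon-gamma GTPases there were 0, and of 7 MHC class II genes 1, the peptide editor H2-DMa (0.43 ± 0.19, and 0.26 ± 0.21 without those libraries, when the count was 0 of 7). Macrophage genes had 1 of 16, the actin-bundling Lcp1 (0.15 ± 0.07), and the fractalkine receptor Cx3cr1 had a difference of -0.35 ± 0.17. With vehicle libraries 1 and 2 left out, Lcp1 was at 0.11 ± 0.09 and Cx3cr1 at -0.44 ± 0.21, and 1 of 16 macrophage genes was then lower at an unadjusted p under 0.05. Lymphocyte genes had 0 of 7. For all 13 interferon-gamma GTPases and all 7 MHC class II genes the interval lay within 2-fold (85.75% of all genes).

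Immediate early genes were above 0 in 13 of 13 tested members (50.87% of all genes) with a median of 0.53, and 0 of them reached an unadjusted p under 0.05. At 0.03 µg/kg alone the median was 0.81, with 8 of 13 at an unadjusted p under 0.05 (6.87% of all genes in that comparison), and at 0.1 µg/kg the median was -0.03, with 0 of 13 (7.17% of all genes). The high values of 0.03 µg/kg replicate 4, given above, enter the pooled and the 0.03 µg/kg values. The part of this library in the list's values was not tested.

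Markers of tubular injury had 2 of 14 members at an unadjusted p under 0.05, the keratin Krt19 (-0.44 ± 0.20) and osteopontin, Spp1 (-0.15 ± 0.07), both lower in treated kidneys. Vehicle libraries 1 and 2 held the highest values of both (14.9 and 16.8 CPM for Krt19, 722 and 712 for Spp1), and without them Krt19 was at -0.16 ± 0.22 and Spp1 at -0.01 ± 0.07, with 0 of 14 lower and 1 higher. The injury markers Havcr1 (0.352 to 2.28 CPM in vehicle, 0.842 to 2.05 treated, 0.32 ± 0.33) and Lcn2 (0.856 to 2.68 and 1.34 to 3.35, 0.45 ± 0.27) overlapped, and were at -0.08 ± 0.33 and 0.12 ± 0.28 without those libraries. The clock list had 1 of 16, Clock (-0.16 ± 0.07), and Per1 differed by 0.41 ± 0.23. Without vehicle libraries 1 and 2, the highest in vehicle for Clock (83.5 and 80.3 CPM), the count was 0 of 16, with Clock at -0.08 ± 0.08 and Per1 at 0.49 ± 0.29. The renin, kallikrein and vitamin D list had 1 of 9, renin, Ren1, at 14 and 21 CPM in vehicle libraries 1 and 2, 30.3 to 55.6 in the other 3 and 38.5 to 61.9 in treated kidneys (0.56 ± 0.25, and 0.18 ± 0.15 without those 2). Matrix and fibroblast genes had 1 of 12, Tgfb1 (0.23 ± 0.10), and cell cycle genes (0 of 11) and mitochondrially encoded genes (0 of 13) had none. Without vehicle libraries 1 and 2, 3 of the 13 mitochondrially encoded genes were lower at an unadjusted p under 0.05, beside 3.08% of all genes, and the list median went from -0.002 to -0.13.

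Of the nephron segment lists, the medians of the 3 given next moved most when vehicle libraries 1 and 2 were left out. In the thick ascending limb list, 6 of 7 members had an unadjusted p under 0.05, all higher, with a median of 0.38 that became 0.10 (1 of 7) without the 2 libraries. Umod, the uromodulin gene, measured 552, 686, 900, 1170 and 1470 CPM in vehicle libraries 1 to 5 and 1260 to 1750 in treated libraries (0.64 ± 0.19, adjusted p = 0.409 in edgeR). Leaving out vehicle libraries 1 and 2, Umod differed by 0.34 ± 0.12. The S3 list had a median of 0.66 and 0 of 5 at an unadjusted p under 0.05, and 0.07 without the 2 libraries. The S1-S2 list had 4 of 8 lower, with a median of -0.19, and 0 of 8 with a median of -0.01 without them. The glucose transporter Slc5a2 measured 611 and 605 CPM in the 2 libraries, 383 to 402 in the other vehicle libraries and 317 to 432 in treated kidneys (-0.36 ± 0.12, and -0.08 ± 0.07 without them).

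In the remaining segments, 1 of 9 podocyte markers had an unadjusted p under 0.05. All 9 were above 0 (50.87% of all genes), with a median of 0.15 that became 0.06 without vehicle libraries 1 and 2. The endothelial receptors Kdr and Flt1 differed by -0.28 ± 0.08 and -0.19 ± 0.07 (2 of 10). Of the 10 endothelial markers 5 were above 0 and 5 below, with a list median of -0.02. The distal convoluted tubule genes Slc8a1 and Trpm6 differed by -0.20 ± 0.07 and -0.23 ± 0.09 (2 of 6). All 6 distal convoluted tubule markers were below 0, with a median of -0.18 that became -0.08 without vehicle libraries 1 and 2. The intercalated cell genes Atp6v1g3 and Slc26a4 differed by -0.23 ± 0.07 and -0.16 ± 0.05 (2 of 7, with a list median of -0.02), and principal cell markers had 0 of 6. None was called, and without vehicle libraries 1 and 2 Kdr was at -0.12 ± 0.08, Flt1 at -0.17 ± 0.08, Slc8a1 at -0.13 ± 0.07, Trpm6 at -0.10 ± 0.10, Atp6v1g3 at -0.15 ± 0.08 and Slc26a4 at -0.12 ± 0.06. The counts were then 0 of 9 podocyte, 2 of 10 endothelial and 0 of 6 distal convoluted tubule markers, beside 3.08% of all genes. The 2 endothelial ones include Flt1 but not Kdr. Of the principal cell markers 1 of 6 was then lower at an unadjusted p under 0.05, and of the intercalated cell markers 1 of 7 was higher.

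**Figure D5:**
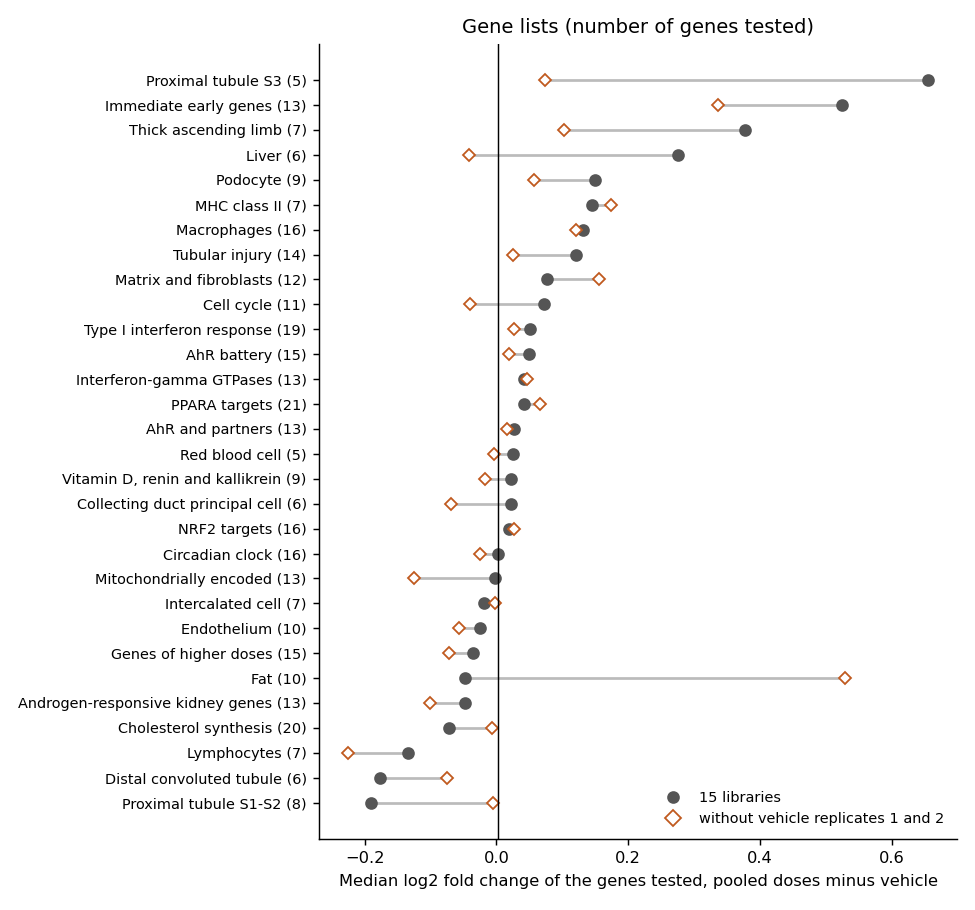
Median log2 fold change of each list of genes with at least 5 tested members, pooled doses minus vehicle, with the number tested in brackets. Filled circles are the fit on 15 libraries, open diamonds the fit without vehicle libraries 1 and 2, and the line the median of all genes (0.003). The S3 median moves from 0.66 to 0.07 and the thick ascending limb median from 0.38 to 0.10, while the AhR battery stays at 0.05 and 0.02.

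Markers of tissues that could be carried along with a kidney were also read in each library. Summed fat markers measured 340 and 310 CPM in vehicle libraries 1 and 2, 128 to 218 in the other 3 and 123 to 396 in treated libraries, and the median difference of the 10 genes was -0.05 with and 0.53 without those 2 libraries. They include brown fat's Ucp1, at 4.16 to 15.9 CPM in vehicle and 2.79 to 30.9 in treated libraries. Pancreas markers summed to 133 and 130 CPM in vehicle libraries 1 and 2, 82.7 to 105 in the other 3 and 80.8 to 102 in treated libraries, nearly all from Cela1, with Pnlip at 0 in all 15 libraries. Skeletal muscle markers summed to under 2 CPM in every library, with Myh4 at 0. Liver markers summed to 98.4 and 99.9 CPM in vehicle libraries 1 and 2, 195 to 256 in the other 3 and 169 to 234 in treated libraries. Red blood cell markers summed to 429 to 709 and 392 to 869 CPM. Of the 6 liver markers 4 were above 0, with a median of 0.28 (-0.04 without vehicle libraries 1 and 2). At an unadjusted p under 0.05, 1 was higher and 1 lower (33.33% of the list, against 9.04% of all genes). The lower one, albumin (Alb), measured 6.18 to 8.58 CPM in vehicle and 3.67 to 6.51 in treated kidneys (-0.49 ± 0.15, adjusted p = 0.404 in edgeR). Without vehicle libraries 1 and 2 Alb differed by -0.39 ± 0.18. Apart from the adrenal markers of 0.03 µg/kg replicate 1, these sums overlapped between the groups. Their part in the results was not tested.

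Genes that respond at the higher doses of the series were then read at these low doses. In libraries not used above, 221 of 16165 genes (1.37%) were called at least 2-fold higher at 10 and 30 µg/kg than at 0.3 µg/kg, and 27 (0.167%) at least 2-fold lower. Of the 221, 191 were tested between the low doses and vehicle, and their median was 0.04 with 109 above 0. There 9 had an unadjusted p under 0.05 (4.71%), 4 higher and 5 lower, against 9.04% of all genes. Of the 27 lower genes the median was 0.09, with 17 above 0 and 4 at an unadjusted p under 0.05. Without vehicle libraries 1 and 2 the medians were 0.08 and -0.11, with 2 of 191 and 2 of 27 at an unadjusted p under 0.05, all lower, beside 3.08% of all genes. For 138 of the 191 (72.25%) the interval lay within 2-fold, against 85.75% of all genes, and for 31.94% within 1.5-fold, against 70.12%.

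Of 18 genes named for their response at higher doses in earlier results of these data, 15 were tested. There 6 reached an unadjusted p under 0.05 (40%, against 9.04% of all genes), 2 higher and 4 lower. Without vehicle libraries 1 and 2, 1 of the 15 was higher and 2 were lower, beside 3.08% of all genes. The list was chosen on libraries that include these 15 and gives no independent evidence of direction. Fcamr, the Fc receptor for IgA and IgM, measured 40.8, 40.2, 30.4, 32.9 and 35.5 CPM in vehicle and 21.2 to 31.3 in treated kidneys (-0.36 ± 0.09, adjusted p = 0.404 in edgeR). Its value was -0.24 ± 0.11 without vehicle libraries 1 and 2. In the scaling over 40 libraries its mean was 36.3 CPM in vehicle, 27.8 and 28.5 in the low-dose groups and 28.1, 26.6, 22.9, 20.4 and 18.5 in the groups of 0.3, 1, 3, 10 and 30 µg/kg. Neurl3, an E3 ubiquitin ligase, had means of 7.83 CPM in vehicle, 7.98 at 0.03, 8.68 at 0.1 and 12.9 at 0.3 µg/kg, and its difference for the pooled doses was 0.09 ± 0.15. The other members at an unadjusted p under 0.05 were Gm8947 (1.07 ± 0.31) and Lcp1 on the higher side and the actin-binding Shroom3 (-0.20 ± 0.08), Btnl9 (-0.28 ± 0.12) and the sulfite oxidase Suox (-0.17 ± 0.08) on the lower side. With vehicle libraries 1 and 2 left out, Gm8947 was at 0.59 ± 0.28, Shroom3 at -0.16 ± 0.10, Btnl9 at -0.20 ± 0.14 and Suox at -0.01 ± 0.08. The transporter Slco1a1 (-0.03 ± 0.29) and the P450 Cyp4a14 (-0.09 ± 0.28) spread widely among vehicle libraries, from 90.2 to 290 and from 15.2 to 38.4 CPM, and were at -0.42 ± 0.25 and 0.43 ± 0.30 without those 2 libraries.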

How the data were processed

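Per the labels' protocols, RNA came from about 100 mg of frozen kidney, with RNA integrity numbers of at least 7. The authors deposited a table of raw read counts by gene for every library, with STAR's 4 columns. Per the submitters' processing notes, FastQC 0.11.7, Trimmomatic 0.39, STAR 2.7.3a and DESeq2 were used, and GRCm39 and mm10 are named with no role, so no coordinates come from the counts. The unstranded column was used, since the stranded columns held near-equal shares (50.6 to 51% in column 3), and reads of overlapping genes on opposite strands are not told apart. STAR's summary lines (unmapped 1.41 to 2.66%, multimapping 7.55 to 9.05%, no feature 5.28 to 7.27%, ambiguous 5.5 to 5.9%) were left out. Of 55359 gene identifiers, 52083 were named from GENCODE M21. A series-wide table of transformed values, whose transformation is not given in the sources used here, was not used.

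Genes passing filterByExpr by pool (15855) were scaled by TMM (0.976 to 1.03) and tested in R 4.3.3 with edgeR 4.0.16 (quasi-likelihood, robust), 2 groups for the pooled comparison and 3 groups for single doses, with no covariates. limma 3.58.1 and DESeq2 1.42.0 were alternatives. Log2 CPM used a prior count of 2, and intervals are at 95%. The pooled fit was also run on simulated counts drawn with no library standing apart, and no result here rests on that run. Replicate pairs had a chi-square of 6.9 to 34.1 per degree of freedom over 30 pairs, so each library counted as its own replicate. Replicate numbers follow accession order. Counts carry no molecular identifiers, and precision from counts covers counting error only. Named genes were 12 set genes, the 8 of lowest p per direction, the 5 of widest gap per direction, the 4 per direction between doses, members of lists at an unadjusted p under 0.05 or the lowest p in each direction of a list, and all genes of the higher-dose list; Cyp7b1, Akr1c18, Slc22a7, Mep1b, Kap, Egr1, Fos and Jun were named after their values were seen. The comparison and the lists were chosen with earlier results of these data known. Alternatives are given with the limits. Some genes that these rules select are not reported here.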

Additional observations from a re-analysis of the deposited data

Results flagged for a closer look

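Each of the 3 dose groups of 5 libraries was searched for a library far from the other 4, in 159 genes. Of 477 groups, 19 (3.98%) held one, where chance gives about 1 in 20. Values are in CPM, with the range of the other 4 libraries of the group.

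In vehicle, Arnt was low in replicate 4 (31.3 against 44.1 to 49.9), and Igtp (8.4 against 12.8 to 13.6) and Shroom3 (54.4 against 68.4 to 70.8) were low in replicate 3.

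At 0.03 µg/kg, Star, an adrenal gene, was high in replicate 1 (176 against 4.07 to 5.5). Replicate 4 held a low Ahr (5.85 against 8.05 to 9.05), Cyp51 (263 against 320 to 325) and Slc22a30 (189 against 208 to 215), and a high Ces1e (118 against 93.5 to 97.8) and Klk1 (1890 against 1590 to 1670). Ncoa2 (94 against 80.6 to 83.8) and Nfe2l2 (126 against 95.9 to 103) were high in replicate 5.

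At 0.1 µg/kg, Ugt1a6a was high in replicate 5 (4.26 against 1.46 to 1.7) and Klf4 in replicate 3 (9.66 against 7.46 to 7.76). Zdhhc15 was low in replicate 3 (0.674 against 1.36 to 1.64), Clock (54.8 against 66.1 to 70.7) and Slc26a4 (99 against 113 to 118) in replicate 1, Cdkn1a (7.16 against 11.7 to 13) and G6pdx (34.2 against 38.4 to 39.6) in replicate 2, and Mylpf (0.244 against 1.04 to 1.48) in replicate 4.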

How the results depend on the processing

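The count of called genes for the pooled doses, 0 in the main fit, was 8 without a filter on low counts (30875 genes tested), 12 with DESeq2, and 0 to 9 when each library was left out in turn. The 9 came without vehicle replicate 5 and 1 without vehicle replicate 4. It stayed 0 with DESeq2's size factors, limma voom with sample weights, the stranded column, all 40 libraries, the medulla-against-cortex covariate, 3 groups, either dose alone, a dose trend, without vehicle replicates 1 and 2, and without those and 0.03 replicates 1 and 4 (chosen after seeing the data). Between the doses it was 7 without a filter and 0 otherwise. The covariate was the mean log2 CPM of thick ascending limb and principal cell markers minus that of S1-S2 markers, centred on its mean. In vehicle replicates 1 and 2 it was -0.914 and -0.83, and in the other libraries it lay between -0.0295 and 0.324. The covariate thus largely sets those 2 libraries apart and is no separate check on tissue region. Genes at an unadjusted p under 0.05 for the pooled doses numbered 1433, and 491 with the covariate, 501 of 16420 without vehicle replicates 1 and 2, 444 of 16197 without those and 0.03 replicates 1 and 4, 3621 of 30875 without a filter, and 781 (without vehicle replicate 1) to 1997 (without vehicle replicate 4) leaving out each library. The list of genes called at 10 and 30 against 0.3 µg/kg held 248 genes, and 976 with no minimum fold change. For Cyp1a1, leaving out each library gave exact permutation differences of 0.4023 to 0.8296 pooled and 1.24 to 1.633 between doses, on the same side of 0.05 in every case. Of 3788 values of named genes under alternatives, 24 passed 0.05, 128 changed sign without being called in either fit, and 0 reversed a call; the causes were not tested. No paired analysis was possible because the labels give no replicate number shared between groups. With 5 vehicle libraries, 2 of which stand apart on the first principal component, differences under about 1.5-fold lie within the interval of many genes.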
